A study of Mus musculus with 2 samples.

Results

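IAPLTR2a is one of the named LTR subfamilies of the intracisternal A particle (IAP), an endogenous retrovirus of the mouse. The IAPLTR2a loci were chosen by name alone, as all deposited loci whose name starts with IAPLTR2a, and number 672 of the 4799 IAP LTRs measured. The study measured methylation of each LTR in 2 lines of mouse cells, from 1 library per line. The first was AB2.2, embryonic stem (ES) cells from strain 129. The second was Neuro2A, which came from a neuroblastoma in the brain of a mouse of strain A albino. Each line is an established culture, no treatment is named for either, and the lines differ in strain as well as in cell type. The series asked how single IAP LTRs compare in DNA methylation between the lines, by bisulfite sequencing of fragments enriched for LTRs with their flanking genome.

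An IAP provirus carries an LTR at each end, and both are copied from one template when the element inserts. The 5′ LTR holds the promoter that drives transcription of the element, and the 3′ LTR supplies the end of the transcript. Recombination between them can remove the interior and leave a solitary LTR. Cells commonly silence IAP copies through methylation of the CpG sites in these LTRs, and copies with a deleted interior are common in the mouse genome. Because the genome build of the files, mm9, comes from strain C57BL/6J, an LTR listed there need not be present with the same sequence in 129 or A albino mice, and presence was not checked.

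Members were split by position as the names allow. Neighbouring loci with the same subfamily and strand, 1000 to 8000 bp apart, were taken as the 5′ and 3′ LTRs of one candidate provirus, read in the direction of the strand. This gave 120 IAPLTR2a pairs and left 432 members unpaired. The distances within pairs ran from 1171 to 4797 bp, and the next same-strand neighbours outside the limits were 11763 bp apart. At these edges, the closest pair had Neuro2A levels of 9.9% at the 5′ and 80.3% at the 3′ end, the widest pair 78.0% and 80.1%, and the couple just outside 59% and 63.9%. An unpaired member may be a solitary LTR or one whose partner was not measured, which cannot be told apart here.

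IAPLTR2a LTRs were mostly methylated in both lines, with a tighter distribution in ES cells. The ES level ranged from 32.7 to 97.2% with a median of 83.2%, and the Neuro2A level from 4.8 to 98.7% with a median of 75.4%. No member was listed at 0 or at 100% in either library. The SD over members was 8.60 points in ES cells and 18.02 points in Neuro2A cells. It describes how loci differ and is not an experimental error, since each line has 1 library and no replicate. No p-value is therefore given for any difference between the lines, and the read depth behind each level is unknown.

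The wider Neuro2A distribution extended at both ends. At 90% or above there were 103 members in Neuro2A cells and 58 in ES cells. Over all loci the order was the opposite. Their upper quartile was 91.2% in ES cells and 87.6% in Neuro2A cells, so more of them reached 90% in ES cells. Under 40% there were 44 members in Neuro2A cells, or 6.55% of the subfamily, while 4.56% of all loci lay that low. Among these 44 the ES level ranged from 49.0 to 90.1%, with a median of 75.2%. Under 20%, the level called low here, there were 8 members in Neuro2A cells and 0 in ES cells, beside 0.979% of all loci that were low in Neuro2A cells. At 80% or above, called high here, the ES library had 446 members (66.4%) and the Neuro2A library 219 (32.6%). Over all loci these shares were 76.9% and 51.4%.

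**Figure D1:**
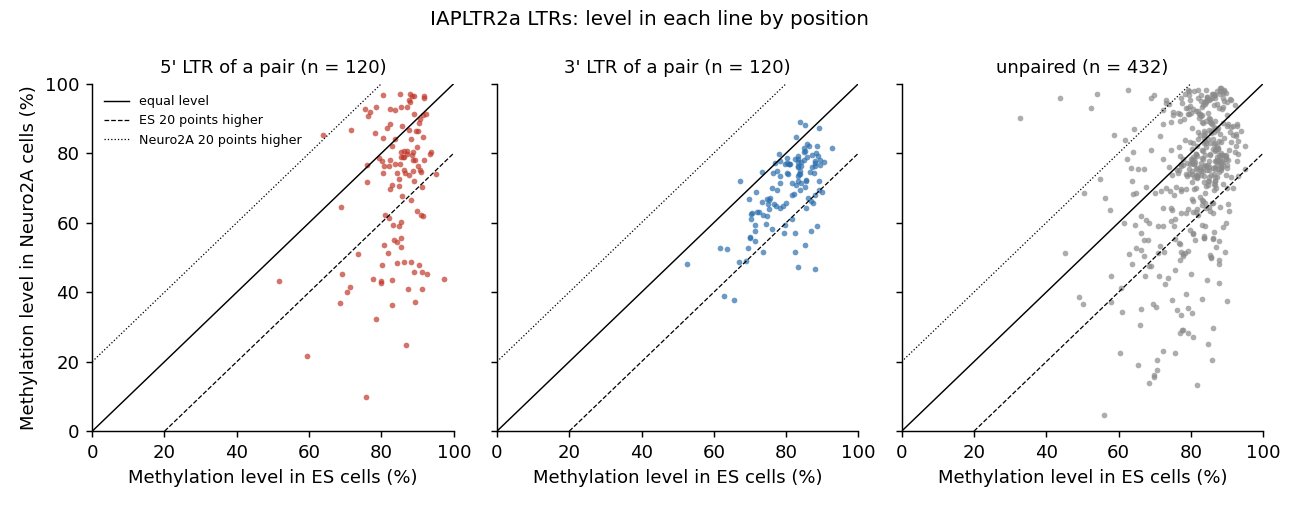
Methylation level in ES cells (x axis, percent) against Neuro2A cells (y axis, percent) for each IAPLTR2a LTR, split into 5′ LTRs of pairs, 3′ LTRs of pairs and unpaired LTRs. The solid line marks equal levels and the dashed and dotted lines an ES or Neuro2A excess of 20 points; the 3′ LTRs lie in a narrow cloud mostly below the line of equality, while 5′ and unpaired LTRs spread downwards to 9.9 and 4.8% in Neuro2A.

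The level was higher in ES cells at 500 of the 672 members (74.4%) and higher in Neuro2A cells at 172. For all loci the share higher in ES cells was 81.4%. An ES excess of at least 20 percentage points was present at 147 members (21.9%, exact 95% interval over loci 18.8 to 25.2), against 14.9% of all loci. The reverse, an excess of at least 20 points in Neuro2A cells, held at 15 members (2.23%), against 1.58% of all loci. The share with a large ES excess was above that of the full set, and its interval did not reach it. The share with a large Neuro2A excess was near that of the full set. Centring each library on its median over all loci takes 6.1 points off every difference. The counts were then 102 and 44, and the median difference of the members was 2.0 points in place of 8.1. Shares of all loci with this centring are not given, and the 14.9 and 1.58% above cannot be set beside these counts. The interval treats loci as independent draws and does not cover variation between cultures.

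Position within the element separated the members by spread more than by median. The 120 5′ LTRs had a median of 85.35% in ES and 75.65% in Neuro2A. Their Neuro2A levels ran from 9.9 to 97.0%, with an interquartile range of 54.15 to 85.4%. The 120 3′ LTRs had medians of 81.9% in ES and 71.05% in Neuro2A. Their Neuro2A levels ran from 37.8 to 89.1%, with an interquartile range of 62.8 to 77.03%. The Neuro2A SD was 19.6 points at 5′ LTRs and 10.4 points at 3′ LTRs, while the ES SDs were close, at 7.17 and 7.28 points. At 90% or above in Neuro2A cells there were 20 5′ LTRs (16.7%) and 0 3′ LTRs. Under 50% there were 26 (21.7%) and 7 (5.83%). Shares of all 5′ and 3′ LTRs at these limits are not given. The wider Neuro2A spread at 5′ LTRs was shared with the full set, whose SDs were 19.61 points at 5′ and 11.36 points at 3′ LTRs. In the same order they were 20.01 and 10.5 points in the subfamily IAPLTR2_Mm and 15.13 and 8.46 points in IAPLTR2b.

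Unpaired members resembled the 5′ LTRs in spread and the 3′ LTRs in ES level. Their medians were 82.85% in ES and 76.5% in Neuro2A, with SDs of 9.11 and 19.1 points. In Neuro2A cells 83 of 432 unpaired members (19.2%) stood at 90% or above and 35 (8.1%) under 40%. The median ES minus Neuro2A difference was 10.85 points at 5′ LTRs, 10.05 points at 3′ LTRs and 6.65 points at unpaired members. With only pairs 2000 to 8000 bp apart, and all other members counted as unpaired, the 5′ median exceeded the unpaired one by 0.3 points and the 3′ median by 0.7 points. With 1 member kept per 100 kb, the 5′ excess was 1.85 points in place of 4.2.

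**Figure D2:**
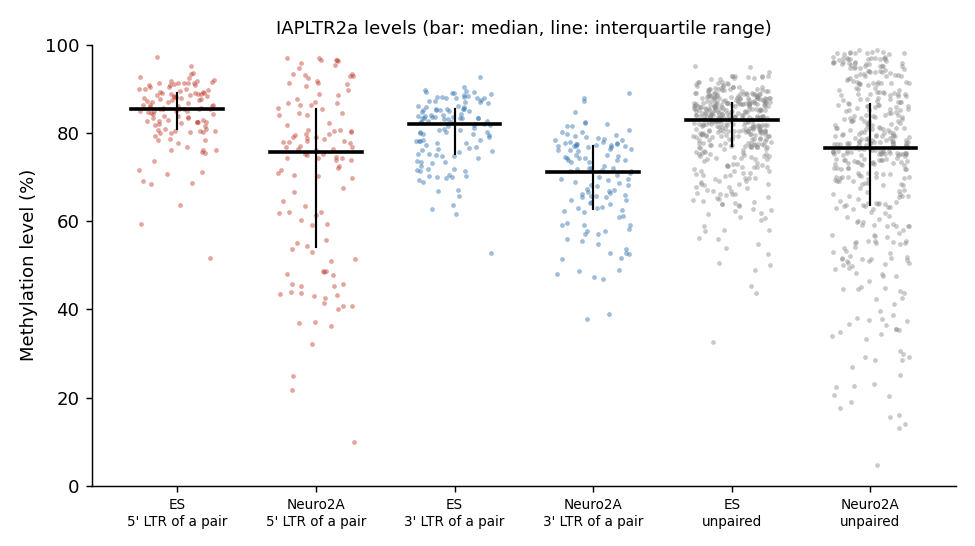
Methylation level (y axis, percent) of every IAPLTR2a LTR in each library, by position; each point is 1 locus, the horizontal bar the median and the vertical line the interquartile range. The Neuro2A range is wide at 5′ and unpaired LTRs (SD 19.6 and 19.1 points) and narrow at 3′ LTRs (SD 10.4 points).

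Large differences were most frequent at 5′ LTRs. The ES level was 20 points or more above the Neuro2A level at 42 of 120 5′ LTRs (35%, exact interval 26.5 to 44.2), beside 25.5% of all 5′ LTRs in the series. At 3′ LTRs the count was 18 of 120 (15%, interval 9.14 to 22.7), beside 7.17% of all 3′ LTRs. At unpaired members it was 87 of 432 (20.1%, interval 16.5 to 24.2), beside 14.1% of all unpaired loci. An excess of at least 20 points in Neuro2A cells occurred at 1, 0 and 14 members in that order. The corresponding shares of all loci were 0.773, 0 and 2.31%.

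The same order held in IAPLTR2_Mm and IAPLTR2b, the subfamilies most like it in level. Their shares at 5′ LTRs were 37.7% and 30.3%, at 3′ LTRs 18.1% and 7.89%, and at unpaired loci 23.2% and 19.6%. The intervals of the 3 subfamilies overlapped within each position. The difference between subfamilies was not tested, and nothing here is shown to be particular to IAPLTR2a. Among unpaired loci the median difference was 6.65 points for IAPLTR2a, 7.7 for IAPLTR2_Mm and 8.65 for IAPLTR2b.

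Within pairs, the ends of one candidate provirus had levels that were related weakly. The 5′ LTR was the higher end in 79 of 120 pairs in ES cells (65.8%) and in 71 in Neuro2A (59.2%). In ES cells this share was 59.5% in IAPLTR2_Mm, 77.6% in IAPLTR2b, 29.8% in IAPLTR1_Mm and 29.9% in IAPLTR1a_Mm pairs. In Neuro2A cells it was 55.8, 68.4, 42.0 and 43.3% in that order. For IAPLTR2a the 5′ level minus the 3′ level had a median of 2.8 points in ES cells (interquartile range -1.7 to 10.4). In Neuro2A cells it was 2.9 points (-9.82 to 15.15). Across pairs, Spearman's rho between the ends was -0.07 for the ES level, 0.26 for the Neuro2A level and 0.40 for the difference between lines. These coefficients describe 120 pairs that share both libraries, and both ends of a pair share their chromosome neighbourhood. An ES excess of at least 20 points was seen at both ends in 14 pairs and at neither in 74. It was seen only at the 5′ end in 28 pairs and only at the 3′ end in 4. Those last counts were 58 and 16 of 215 pairs in IAPLTR2_Mm and 20 and 3 of 76 in IAPLTR2b.

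In ES cells a gap of 20 points between the ends was rare, with the 5′ end lower in 3 pairs and the 3′ end lower in 9. In Neuro2A cells these counts were 17 and 18. IAPLTR2a pairs were thus split about evenly in Neuro2A cells, while the IAPLTR2_Mm counts were 41 and 29 of 215 pairs and the IAPLTR2b counts 5 and 10 of 76. Both ends had the same length in 66 of the 120 IAPLTR2a pairs.

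**Figure D3:**
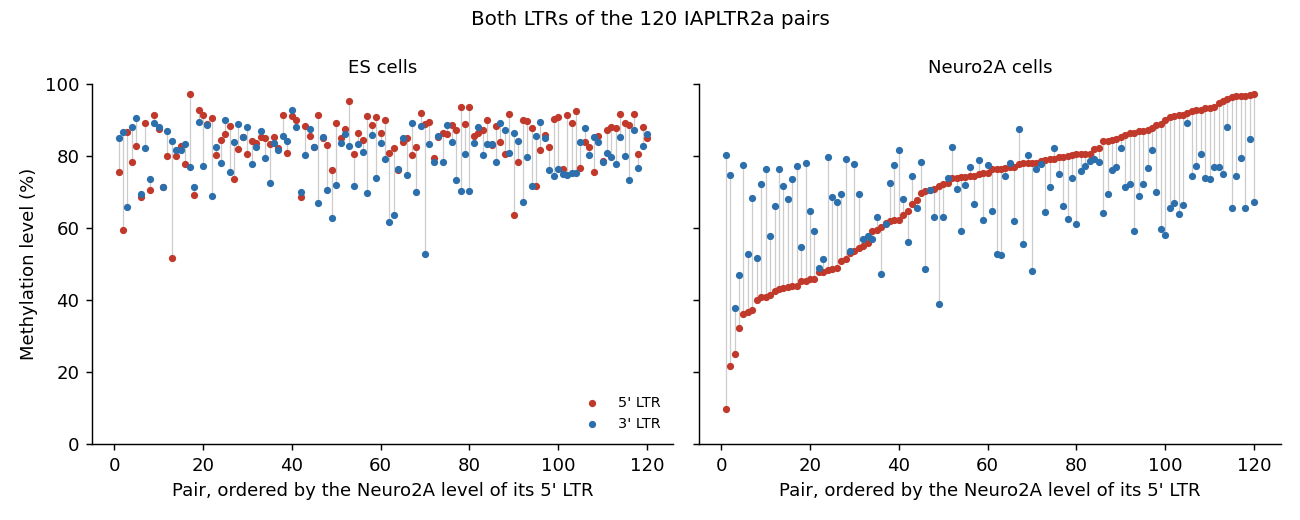
Methylation level (y axis, percent) of the 5′ LTR (red) and 3′ LTR (blue) of each of the 120 IAPLTR2a pairs in ES cells (left) and Neuro2A cells (right), with a grey line joining the ends of a pair. Pairs are ordered in both panels by the Neuro2A level of the 5′ LTR, which runs from 9.9 to 97.0%, while the 3′ LTRs stay between 37.8 and 89.1%.

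The pairs with the lowest 5′ end relative to the 3′ end in Neuro2A cells were named by rank, as a description, with coordinates on mm9. A minus-strand pair on chromosome 16 had its 5′ LTR at 64385967 to 64386354 and its 3′ LTR at 64384408 to 64384795, both 388 bp long. The 5′ LTR was at 75.6% in ES and 9.9% in Neuro2A, and the 3′ LTR at 85.0% and 80.3%. The ends therefore differed by 70.4 points in Neuro2A cells over an interior of 1171 bp, the shortest of the set.

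A minus-strand pair on chromosome 14 (5′ LTR 111481983 to 111482371) had 59.3% and 21.7% at the 5′ end against 86.7% and 74.7% at the 3′ end, in ES and Neuro2A cells. On chromosome 15 the plus-strand 5′ LTR at 91249915 to 91250310 had 82.8% and 36.2%, and its 3′ partner 90.5% and 77.5%. On chromosome 14 the minus-strand 5′ LTR at 80262528 to 80262924 had 87.4% and 40.8%, and its partner 88.0% and 76.4%. The 5′ end was the lower one in ES cells too in each of these, by 27.4, 7.7 and 0.6 points in that order.

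The fifth such pair, on the minus strand of the X (5′ LTR 41182944 to 41183315), had 97.2% and 43.9% at its 5′ end. Its 3′ end had 76.8% and 77.2%, so the order of the ends was opposite in the lines. That 5′ LTR had the highest ES level of all 672 members.

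The pairs with the lowest 3′ end relative to the 5′ end in Neuro2A cells lay on the plus strand. On the X, the 5′ LTR at 36523360 to 36523751 had 76.1% in ES and 71.6% in Neuro2A, and its 3′ LTR 62.8% and 39.0%. On chromosome 12 the 5′ LTR at 92465985 to 92466373 had 90.8% and 89.8%, and the 3′ LTR 76.2% and 58.1%. On chromosome 11 the 5′ LTR at 90368948 to 90369359 had 80.5% and 96.6%, and the 3′ LTR 76.5% and 65.4%.

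On chromosome 13 the 5′ LTR at 62649907 to 62650305 had 89.1% and 96.3%, and the 3′ LTR 79.9% and 65.6%. On chromosome 17 the 5′ LTR at 21355192 to 21355559 had 88.7% and 78.1%, and the 3′ LTR 52.7% and 48.1%. The 3′ end was the lower one in ES cells too in each of these 5 pairs. On chromosomes 11 and 13 the 5′ end stood higher in Neuro2A cells than in ES cells.

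The distance between the ends of a pair went with the Neuro2A level. Distances had a median of 1991.5 bp in IAPLTR2a, 1994 bp in IAPLTR2_Mm and 3246 bp in IAPLTR2b, against 6366 bp in IAPLTR1_Mm and 5899.5 bp in IAPLTR1a_Mm. The IAPLTR2a pairs thus enclosed short interiors. Spearman's rho of distance with the Neuro2A level was 0.26 at 5′ LTRs and 0.25 at 3′ LTRs, and with the difference between lines -0.20 and -0.35, over 120 pairs. The distance classes that follow were chosen after the values were seen.

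Of the 65 pairs under 2000 bp apart, 29 had a 5′ LTR with an ES excess of at least 20 points (44.6%). The counts were 7 of 40 pairs (17.5%) at 2000 to under 3000 bp and 6 of 15 (40%) at 3000 bp or more, so the share did not follow distance in one direction. The concentration was highest in the 27 pairs 1800 to under 1900 bp apart. There the 5′ median was 81.8% in ES and 54.3% in Neuro2A, and 16 of the 27 (59.3%) passed that limit. The other 93 pairs had 5′ medians of 86.4% and 78.0%, and 26 of them (28%) passed. The neighbouring classes of IAPLTR2a pairs had 6 of 15 (40%) at 1700 to under 1800 bp and 6 of 21 (28.6%) at 1900 to under 2000 bp. IAPLTR2_Mm pairs also passed more often in the 1800 bp class, in 27 of 51 (52.9%) against 54 of the other 164 (32.9%). Their share was similar at 1700 to under 1800 bp, with 11 of 20 (55%). It was 18 of 39 (46.2%) at 1900 and 16 of 39 (41%) at 2000 bp. In IAPLTR2b only 3 pairs fell in the 1800 bp class, and 1 passed.

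**Figure D4:**
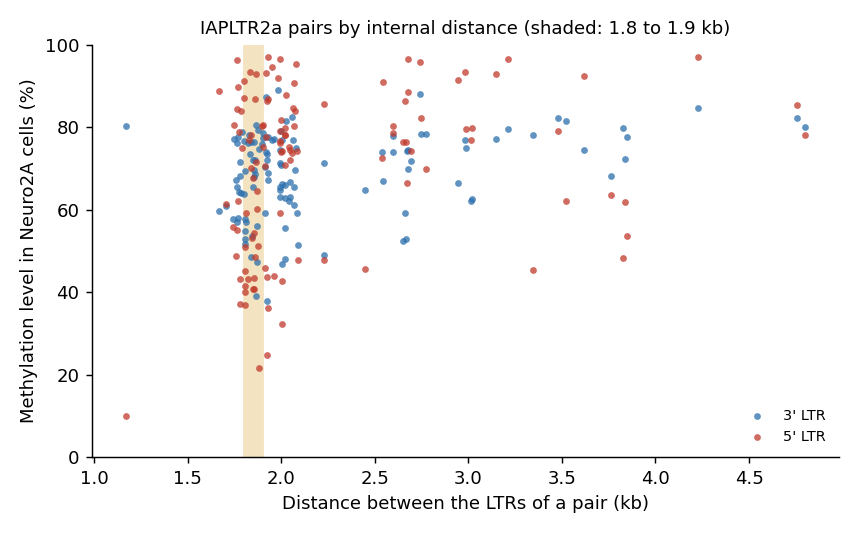
Neuro2A methylation level (y axis, percent) of the 5′ LTRs (red) and 3′ LTRs (blue) of IAPLTR2a pairs against the distance between both ends (x axis, kb). The shaded class of 1.8 to 1.9 kb holds 27 pairs with a median 5′ level of 54.3% and a median 3′ level of 69.3%.

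Part of that class consists of copies that look alike. On chromosome 7, 4 pairs had LTRs of 377 bp at both ends and exactly 1809 bp between them. Their 5′ LTRs lie at 7733087 to 7733463 and 7976225 to 7976601 on the minus strand and at 8857281 to 8857657 and 9546730 to 9547106 on the plus strand. The 5′ levels in ES cells were 69.2, 71.2, 68.5 and 70.6%, and in Neuro2A cells 45.2, 41.5, 36.8 and 40%. The 3′ levels were 71.3, 71.4, 69.4 and 73.5% in ES and 54.8, 57.7, 52.8 and 51.6% in Neuro2A.

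These 4 pairs varied little, with a Neuro2A SD of 3.49 points at the 5′ end, against 19.1 points over the other 116 pairs. In all 4 the 5′ LTR had an ES excess of at least 20 points, while the 3′ LTR passed in 1. Their sequences were not compared, and how reads were shared between alike copies is not given in the sources used here, so the 4 pairs may not be independent measurements. Without them, 12 of 23 pairs (52.2%) in the 1800 bp class passed at the 5′ end, and 38 of 116 (32.8%) overall. The excess of the median 5′ difference over the unpaired one was then 2.8 points in place of 4.2. A couple of alike pairs on chromosome 12, with LTRs of 347 bp and 2045 bp between them, had 5′ levels of 89.0 and 91.0% in ES and 72.1 and 74.5% in Neuro2A.

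LTR length differed little among members, and the longer members had the smaller difference between lines. Lengths ran from 92 to 575 bp with a median of 391 bp, shorter than in IAPLTR2_Mm (456 bp) and longer than in IAPLTR2b (326 bp). Members were cut at 381 and 398 bp into short, middle and long classes of nearly equal size. The median difference was 10.75 points in the short class (226 members), 8.95 in the middle (224) and 5.45 in the long class (222). An ES excess of at least 20 points was seen in 24.8, 26.3 and 14.4%, respectively. The ES medians were 83.75, 81.5 and 83.55%, so ES levels did not follow length, while the Neuro2A medians were 73.9, 74.1 and 77.7%.

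The long class also lacked very low levels. Its lowest Neuro2A level was 23.0%, and its Neuro2A SD was 14.4 points, against 18.2 in the short and 20.3 in the middle class. All 8 members under 20% in Neuro2A were short or middle. Among unpaired members alone the medians were 10, 6.25 and 4.6 points from short to long, and at 5′ LTRs 12.75, 13.7 and 5.15 points. At 3′ LTRs they were 10.4, 12.15 and 8.1 points. Spearman's rho of length with the difference was -0.17 over 672 members. In IAPLTR2_Mm the medians by its own length classes were 10.35, 8.6 and 7.2 points, and in IAPLTR2b 11.1, 7.7 and 7.8 points. The long classes of these subfamilies did hold low Neuro2A levels, with 4 low loci in IAPLTR2_Mm (lowest 13.8%) and 1 in IAPLTR2b (2.3%).

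Some exact lengths recurred. The 20 members of 352 bp had medians of 88.1% in ES and 75.4% in Neuro2A, and 17 of them were higher in ES cells. The 18 members of 377 bp had the lowest ES median of lengths with at least 15 members, at 73.0%, with 58.5% in Neuro2A, and all 18 were higher in ES cells. That low median rests on the alike pairs of chromosome 7. The other 10 members of 377 bp had medians of 84.15% and 69.95%.

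**Figure D5:**
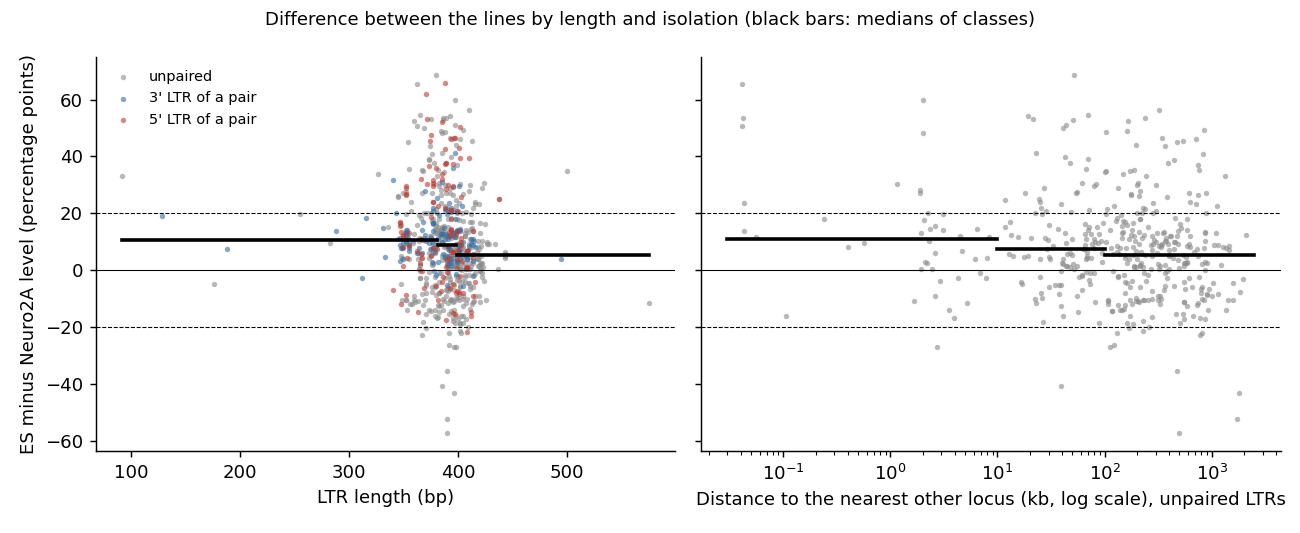
ES minus Neuro2A level (y axis, percentage points) of IAPLTR2a LTRs against LTR length (left, all members, x axis in bp) and against the distance to the nearest other locus (right, unpaired members, x axis in kb on a log scale). Black bars are class medians, 10.75, 8.95 and 5.45 points for the short, middle and long classes and 11, 7.6 and 5.5 points from near to far; broken lines mark differences of 20 points.

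By strand, the medians of all members lay close together, but those within positions did not all do so. The 346 plus-strand members had a median difference of 7.75 points and the 326 minus-strand members 8.5 points. At 5′ LTRs the median difference was 8.25 points on plus and 13.65 on minus, at unpaired members 5.6 and 8.05 points, and at 3′ LTRs, in the opposite order, 11.25 and 9.15 points. Over all members, shares with an ES excess of at least 20 points were 19.1 and 24.8%. The gap in shares was seen at 5′ LTRs (29.7% of 64 on plus, 41.1% of 56 on minus) and at unpaired members (17.4% of 218 and 22.9% of 214), and was small at 3′ LTRs (14.1 and 16.1%). In IAPLTR2_Mm the shares over all members were 24.6 and 24.7%, and in IAPLTR2b 20 and 19%. At 5′ LTRs their order was the reverse of that in IAPLTR2a, 44.8% on plus and 31.9% on minus in IAPLTR2_Mm and 36.7 and 26.1% in IAPLTR2b. At unpaired loci it was the same, 21.1 and 25.5% in IAPLTR2_Mm and 18.6 and 20.6% in IAPLTR2b.

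Isolated members had a smaller median difference. Their spread of differences was wider than that of near members only with paired members counted. Distance was taken to the nearest other locus of any subfamily, and all paired members fall under 10 kb by construction. Members under 10 kb from another locus (284) had a median difference of 10.35 points, those at 10 to under 100 kb (117) 7.6 points and those at 100 kb or more (271) 5.5 points. Neuro2A medians were 73.8, 76.9 and 76.7%, and ES medians 83.4, 84.0 and 82.2%. The SD of the difference over members was 15.56 points near, 17.53 middle and 17.8 far. With paired members left out it was 20.3 points near, and the middle and far values were unchanged. Of the 271 far members 97 were higher in Neuro2A cells. An ES excess of at least 20 points was seen at 70 near (24.6%) and 49 far members (18.1%), beside 14.9% of all loci. A Neuro2A excess of that size was seen at 2 near (0.704%) and 12 far members (4.43%), beside 1.58% of all loci. Of the 44 near members that were unpaired, 10 (22.7%) had the ES excess and 1 (2.27%) the Neuro2A excess.

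Among unpaired members alone the medians were 11 points for 44 near, 7.6 for 117 middle and 5.5 for 271 far members. The excess of near over far, 5.5 points, came down to 1.95 points without 6 members that face another IAPLTR2a copy on the opposite strand. From near to far, the medians of the short class were 12, 11 and 9.0 points (17, 45 and 69 members) and those of the middle class 13.9, 10.5 and 4.65 points (15, 31 and 96 members). In the long class they were 3.65, 4.6 and 4.8 points (12, 41 and 106 members), so the lower difference at far members was not seen there. Spearman's rho of distance with the difference was -0.15 over the 432 unpaired members. The order from near to far was shared by unpaired loci of the other 2 subfamilies. Their median differences were 9.3, 8.85 and 6.85 points in IAPLTR2_Mm and 9.95, 9.5 and 7.9 points in IAPLTR2b.

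The 8 members with the largest excess in ES cells included 2 5′ LTRs and 6 unpaired copies. An unpaired minus-strand copy on the X (49295072 to 49295451) had 81.8% in ES and 13.2% in Neuro2A, a difference of 68.6 points. The chromosome 16 5′ LTR at 64385967, described above, followed with 65.7 points. An unpaired copy on chromosome 16 (minus strand, 60884321 to 60884682) had 85.9% and 20.4%. A 5′ LTR on chromosome 2 (plus strand, 87712715 to 87713085) had 86.7% and 24.9%, and its 3′ partner 65.7% and 37.8%. This was the lower of only 2 3′ LTRs under 40% in Neuro2A, the other being the X copy at 36525618 to 36526009.

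The remaining unpaired copies with a large ES excess were near the lower end of the Neuro2A range. A copy on chromosome 1 (minus strand, 102427944 to 102428340) had 84.7% and 25%. A copy on chromosome 6 (plus strand, 21795080 to 21795489) had 86.2% and 29.8%. A copy on the same chromosome (plus strand, 58155780 to 58156144) had 68.5% and 14%, and one on chromosome 2 (minus strand, 111373409 to 111373801) 69.7% and 15.6%. Of the 11 members at 80% or above in ES cells and under 40% in Neuro2A (1.64% of members, beside 1.92% of all loci), 8 were unpaired and 3 were 5′ LTRs.

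The 5 members with the lowest mean of both levels were intermediate in ES cells. The lowest was a minus-strand unpaired copy on chromosome 2 (111437078 to 111437474) at 56.0% in ES and 4.8% in Neuro2A, on the same strand as the copy at 111373409 named above. The 5′ LTR of chromosome 14 at 111481983 and the chromosome 6 copy at 58155780 were given above. An unpaired copy on chromosome 4 (plus strand, 39509001 to 39509389) had 60.3% and 22.5%, and one on chromosome 10 (minus strand, 65841887 to 65842279) 65.4% and 19%. All 5 were between 365 and 397 bp long.

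The 8 members with the largest excess in Neuro2A cells were all unpaired and between 385 and 398 bp long. A copy on chromosome 8 (minus strand, 82133248 to 82133637) had 32.7% in ES cells, the lowest ES level of the subfamily, and 90% in Neuro2A. Copies on chromosome 16 (plus strand, 96232553 to 96232942) and chromosome 5 (minus strand, 117889722 to 117890117) had 43.8% and 54.0% in ES cells against 95.9% and 97.0% in Neuro2A. These 3 were at least 491825 bp from any other locus.

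A copy on chromosome 6 (minus strand, 120037934 to 120038318) had 52.5% in ES and 93.1% in Neuro2A, and one on chromosome 15 (plus strand, 95583747 to 95584136) 62.6% and 98.1%. Copies on chromosome 8 (plus strand, 51845664 to 51846059), chromosome 10 (minus strand, 98678988 to 98679385) and chromosome 2 (minus strand, 47177147 to 47177538) had 68.9, 69.8 and 58.8% in ES cells. Their Neuro2A levels were 96.0, 96.7 and 85.2%. All 8 were under 70% in ES cells.

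Under 70% in ES cells there were 74 members (11%, beside 6.67% of all loci), of which 56 were unpaired, 12 were 3′ LTRs and 6 were 5′ LTRs. Their Neuro2A levels ran from 4.8 to 98.1% with a median of 55.0%. Of these 74, 27 were higher in Neuro2A cells, 25 of them unpaired. In the 598 members at 70% or above in ES cells the Neuro2A median was 76.4%. Selecting members by a low ES level favours those that are higher in the other library, so these counts are a description.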

How the data were processed

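Each deposited value is a score, which per the file headers the authors derived by scaling the fraction of methylation to a maximum of 1000; division by 10 gave percent. Coordinates are on mm9, as the headers state, taken 1-based from the locus names. The submitters' processing notes list Bowtie2 but not what it did. No source used here gives the methylation caller, read filters, read numbers or the handling of reads matching more than 1 copy, so depth is unknown. No mm9 sequence or annotation was used here, so LTR sequence and gene context are left out.

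Pairs were formed from left to right over all loci, each locus entering 1 pair at most, with distances edge to edge. Intervals on shares are exact (Clopper-Pearson, 95%) over loci. Named loci are the 8 with the largest excess in each line, the 5 with the lowest mean and the 5 pairs with the largest gap between ends in each direction in Neuro2A cells; others were singled out after their values were seen. Members, classes and rules were chosen with earlier results of these data known. Summaries used Python 3.11.15, pandas 2.3.3 and SciPy 1.17.1, with scripts tested on simulated levels. Alternatives changed the class limits, the difference limit, the pair distances, the centring and the loci kept.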

Additional observations from a re-analysis of the deposited data

How the results depend on the processing

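Differences between lines were taken within each locus. AB2.2 and Neuro2A contributed 1 library apiece, so no comparison of replicates was possible. Over 17 values and their alternatives, 131 recomputed values stayed inside the main value's 95% interval (counts: inside 1.5 times) and 18 moved further. None changed sign, which levels, shares and counts cannot do. Some of the 131 could not move. No member is listed at 0, so leaving out such loci changed no value of the members. Centring cannot change a contrast between groups of loci, and allowing pairs up to 10000 bp apart added no IAPLTR2a pair. Some intervals are wide: that of the 5′ minus unpaired median difference runs from 0.35 to 8.05 points around 4.2, and keeping 1 member per 100 kb (1.85 points), dropping the alike pairs of chromosome 7 (2.8) or using means (6.36) stayed inside it. Near minus far, 4.85 points, was 7.4 with limits of 50 and 500 kb and 1.95 for unpaired members without inverted couples. Minus minus plus strand, 0.75 points, was 2.45 for unpaired members, and X minus autosomes, 0.6 points, was 2.55 with means. Unpaired IAPLTR2a minus IAPLTR2_Mm, -1.05 points, was -2.27 with means. Means in place of medians gave 81.08% in ES cells, 71.66% in Neuro2A cells and a difference of 9.42 points. With limits of 10 and 90%, high members made up 8.63% in ES and 15.33% in Neuro2A cells and 2 were low in Neuro2A cells; with 30 and 70% these were 88.99%, 63.39% and 22. A limit of 10 points gave 295 members with an ES excess and 81 with a Neuro2A excess, and 40 points 39 and 4. Centring each library on its median, which subtracts 6.1 points, left a median difference of 2.0 points and gave 44 members with a Neuro2A excess in place of 15. Pairs 2000 to 8000 bp apart gave an excess over unpaired members of 0.3 points at 5′ and 0.7 points at 3′ LTRs, and a gap in Neuro2A SD of 5.34 points in place of 9.15; 65 closer pairs count as unpaired there by construction. Alternatives without the alike pairs of chromosome 7, the inverted couples or chromosome 19 were chosen after the data were seen. Unknown depth limits every single locus.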

Other observations

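Couples of IAPLTR2a LTRs on opposite strands were singled out after their values were seen. Within 10 kb of each other, 3 couples of unpaired IAPLTR2a LTRs lay with a plus-strand copy followed by a minus-strand copy. On chromosome 16 the copies at 60883918 to 60884279 and 60884321 to 60884682 were 41 bp apart and both 362 bp long. They had 79.2 and 85.9% in ES and 28.4 and 20.4% in Neuro2A. On chromosome 1 the copies at 102425534 to 102425918 and 102427944 to 102428340 were 2025 bp apart, with 77.5 and 84.7% in ES and 29.2 and 25% in Neuro2A. On the X the copies at 101901052 to 101901436 and 101901480 to 101901863 were 43 bp apart, with 84.8 and 80.6% in ES and 70.9 and 56.9% in Neuro2A. Thus 5 of these 6 copies had an ES excess of at least 20 points, beside 21.9% of all members and 14.9% of all loci. A couple in the opposite orientation on chromosome 1, 7713 bp apart (110845266 to 110845677 and 110853391 to 110853791), had 95.1 and 85.3% in ES and 75.4 and 89.1% in Neuro2A.

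Over all loci, 11 of 24 LTRs in facing couples of one subfamily within 10 kb had an ES excess of at least 20 points (45.8%), and 4 of 22 in the opposite orientation (18.2%). The facing count includes the 6 IAPLTR2a copies; without IAPLTR2a it was 6 of 18 (33.3%), and 4 of 20 (20%) in the opposite orientation. Facing couples of different subfamilies had 12 of 56 (21.4%). On chromosome 15 an IAPLTR2a copy (29060582 to 29060967, plus strand) faced an IAPLTR2_Mm copy 42 bp away. The IAPLTR2a copy had 80.5% in ES and 27.0% in Neuro2A, and the IAPLTR2_Mm copy 81.0 and 66.7%. On chromosome 2 an IAPLTR2a copy (137222887 to 137223282, plus strand) faced an IAPLTR2_Mm copy 56 bp away. The IAPLTR2a copy had 70.9% in ES and 59.1% in Neuro2A, and the IAPLTR2_Mm copy 84.8 and 84.3%, so neither reached 20 points.

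By chromosome, the median difference of IAPLTR2a members ran from 3.55 points on chromosome 10 (48 members) to 12.6 points on chromosome 15 (32 members), among chromosomes with at least 20 members. It was 8.7 points on the X (64 members) and 8.1 points on autosomes (606 members). Chromosome 19, with 15 members and so under that limit, was singled out after its values were seen. Its median difference was -2.7 points, with medians of 82.5% in ES and 82.1% in Neuro2A. It had 0 members past 20 points in either direction, beside 14.9% (ES excess) and 1.58% (Neuro2A excess) of all loci.

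Unpaired members resembled their nearest locus of any subfamily weakly. For 117 members 10 to under 100 kb from it, Spearman's rho was 0.08 for the ES level, 0.10 for the Neuro2A level and 0.18 for the difference between lines. For 249 members 100 kb to under 1 Mb away these were -0.03, 0.19 and 0.18. The points share both libraries, and some members share a neighbour.

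On chromosome 4, 3 unpaired copies of 443 bp lay within 1 Mb (41971064 to 41971506, 42407080 to 42407522 and 42611203 to 42611645). They had 87.8, 82.5 and 81.7% in ES and 83.5, 76.0 and 75.8% in Neuro2A. A copy of the same length on unplaced sequence had 83.3% and 78.2%.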
